A study of Sus scrofa with 24 samples.

Results

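The jejunum without Peyer's patches and the liver of the same 6 pigs were compared across genes. Both groups were defined by the tissue in the sample labels, and they hold 12 of the 24 arrays of the series, 6 titled Jejunum and 6 titled Liver. The animals were crossbred piglets (animals 68, 69, 70, 71, 73 and 75), weaned at day 28, given feed and water freely and killed at 10 weeks of age, with no treatment that differed between groups. Each array carried RNA of 1 tissue of 1 animal, with no pooling, so Jejunum and Liver were paired by animal. The labels name no portion of the liver lobe and no cell separation, and both are whole tissue. Spleen arrays of the same animals enter only where genes high in both organs are described.

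The small intestine and the liver both arise from endoderm, and blood from the intestine drains to the liver through the portal vein. The enterocyte digests food at its brush border, takes up sugars, peptides, fat and minerals and passes them on, while the hepatocyte stores and rebuilds them, secretes most plasma proteins and makes bile acids and urea. Both cells build lipoproteins and metabolise foreign compounds, and many of their genes are known to be under the same nuclear receptors and hepatocyte nuclear factors.

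A gene was read through an array probe of 60 bases, and the first 30 bases of each probe are printed here as the scanner files give them. The first set shows probes of genes that marked one organ: the brush border enzymes SI and MEP1B, the glucose transporter SLC5A1 and the trypsin inhibitor SPINK1 for Jejunum, and ALB, FGB and CYP2E1 for Liver.
SI: aatctgttttgggatgatggagagacaatt
MEP1B: actgcgtcattcttctataaatggatcttc
SLC5A1: tagtgaacatcaatggcattatcctgctga
SPINK1: cctgtaagaacactaggacacatgtctggc
ALB: agggaaccttcaccttccatgcagacctat
FGB: cactgtgaggtgaactaaaaaagaagttgt
CYP2E1: ttccagcccacatccttcagatagaatttg

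The second set shows members of 3 families whose genes differed between the organs in opposite or unequal ways. Over all pairs of related genes described here, the longest run of bases that the whole probes of a pair had in common was 4 to 7.
FABP1: aagtctgtgactgaactcaacggtgacata
FABP2: gctgactgattagtcctttttaaacattgg
RBP4: actccttcgtgtttgcccgagacccccacg
RBP2: tttgatgagtacacaaagggcctggacaac
APOA1: gttcggcttcttggaataagcagttccgga
APOA4: atacatgtccagtggaccgtgacactacct

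Levels are log2 signals minus the 75th percentile of the array, so a level of 0 is the signal of the probe at that percentile, and levels were compared between tissues for the same probe only. Differences are Jejunum minus Liver, a negative value being higher in Liver, and are given with their standard error (SE). A gene was called at a limma adjusted p under 0.05 together with a difference of at least 1, which is 2-fold. Where no array of one tissue read the probe well above background, only a lower bound on the fold is given, the bright tissue's mean over the lowest signal that counts as well above background. The 75th percentile itself lay between 680.9 and 1001.2 in Jejunum and between 423.8 and 525.7 in Liver, and the share of probes well above background was 68.6% to 73.2% against 60.4% to 67.7%. No spot was saturated. The tissues lay on different slides, 3 with Liver and Spleen and 3 with the 2 jejunal samples, so tissue and slide set cannot be told apart in any Jejunum-Liver difference.

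Of 10585 genes tested, 3558 (33.6%) were called. In Jejunum 1842 were higher (17.4% of those tested) and in Liver 1716 (16.2%), with a median difference over all genes of -0.00968. Of the genes tested, 15.8% were called with a difference of at least 4-fold and 3.88% with at least 32-fold. The split between the directions depended on the scaling. Of the called genes, 51.8% were higher in Jejunum with the 75th percentile, 45.8% with a normexp background correction, 41.2% in the authors' deposited table and 84.6% when arrays were scaled to the spiked-in control RNAs. Against those controls the median probe was higher in Jejunum by 0.95, and with normexp it stood at -0.16, so all differences below are relative to the bulk of genes. In the authors' deposited table the 2 slide sets differed by a median absolute 0.05, against 0.49 in the scanner signals. Its Jejunum-Liver differences had a slope of 0.26 on those of the scanner, against 0.73 for Liver and Spleen, which share slides. Jejunum-Liver values from that table are given below with that limit. Several gut lists described below as mostly higher in Jejunum had smaller differences in the authors' deposited table. Of their genes, 1 of the microvillus list, 2 of the goblet and Paneth list, 0 of the enteroendocrine list, 1 each of the guanylin and cholangiocyte lists, 2 of the plasma cell list and 0 of the proliferation list were higher in Jejunum there, with medians from 0.05 to 0.5. The spiked-in controls had a mean log2 signal of 13.46 ± 0.34 (SD, n = 6) in Jejunum and 13.6 ± 0.2 (SD, n = 6) in Liver before scaling, which did not differ in a two-sided exact permutation test (p = 0.39). After scaling their levels were 3.84 ± 0.52 and 4.75 ± 0.27 (exact permutation p = 0.0087, where the smallest possible is 0.0022).

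The organ labels were checked against marker genes. All 7 hepatocyte markers were higher in Liver (ALB, TTR, FGA, AHSG, SERPINA1, APOH and TF), and all 5 enterocyte markers tested were higher in Jejunum (VIL1, FABP2, SI, ANPEP and APOA4). CDH17, CDX1 and CDX2 were not analysed here. The 4 smooth muscle markers and the 3 T cell markers were higher in Jejunum and the 3 Kupffer cell markers tested in Liver. In samples of whole tissue fewer cells of a type and less RNA per cell cannot be told apart.

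**Figure D1:**
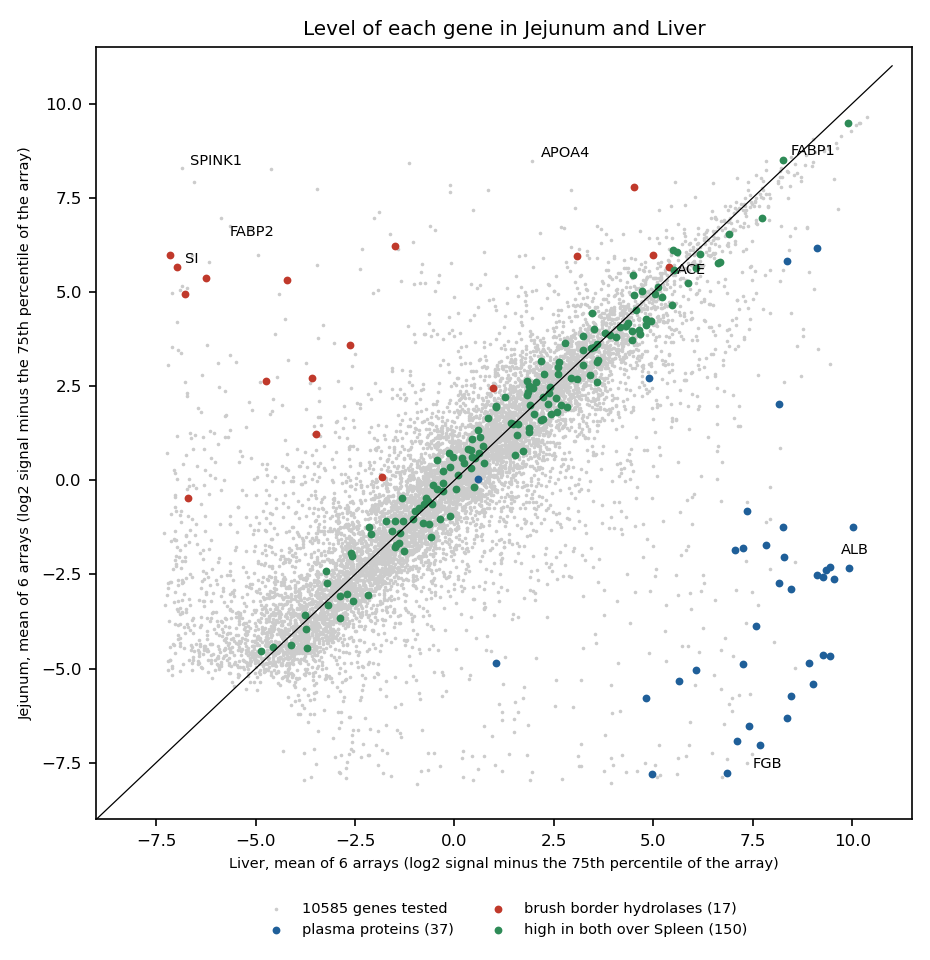
Mean level of each of 10585 genes in Liver (horizontal axis) and Jejunum (vertical axis), both as log2 signal minus the 75th percentile of the array, with 6 arrays per mean; the line marks equal levels. The 17 brush border hydrolases lie above the line, close to it for ACE, and the 37 plasma proteins lie below it. The 150 genes high in both organs over Spleen lie along it, as the rule that chose them requires.

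The enzymes of the brush border, which cut sugars and peptides at the surface of the enterocyte, set Jejunum apart. Of 17 tested, 16 were higher in Jejunum and 0 in Liver, with a median difference of 6.23, beside 17.4% of all genes higher in Jejunum. In the authors' deposited table, Jejunum was higher for 2 and Liver for 2, with a median of 0.39. SI, sucrase-isomaltase, had levels from 5.24 to 5.97 (median 5.72) in Jejunum and from -7.23 to -6.05 (median -7.14) in Liver, where no array was well above background, so it was at least 1590-fold higher in Jejunum (adjusted p = 2.1e-09). MEP1B, the beta subunit of the metalloprotease meprin, lay between 5.71 and 6.28 (median 5.97) against -7.37 and -6.59 (median -7.2), at least 1970-fold higher (adjusted p = 2.4e-10). MME, neprilysin, had levels from 4.96 to 5.83 (median 5.37) against -7.14 to -4.18 (median -6.62), at least 1270-fold higher (adjusted p = 1.2e-07). In these 3 genes the 2 organs were far apart in every animal. ENPEP, aminopeptidase A, was measured on all 12 arrays, from 5.93 to 6.44 (median 6.24) in Jejunum and from -1.93 to -0.78 (median -1.56) in Liver, a difference of 7.71 ± 0.2 (adjusted p = 1.4e-08). DPP4, a dipeptidyl peptidase that hepatocytes also carry on their canalicular face, differed least among the called enzymes, from 5.84 to 6.18 against 4.65 to 5.51 with a difference of 1.0 ± 0.16 (adjusted p = 0.00077). The DPP4 call was lost without animal 68, 69, 70 or 71, where the difference was 0.91 to 0.99. ACE, angiotensin-converting enzyme, was not called through its brightest probe (5.48 to 5.94 against 5.18 to 5.81, 0.27 ± 0.13), but its other 3 probes differed by 7.02 to 7.83, so its probes disagree.

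The proteins that build the microvillus followed the same direction, 8 of 9 higher in Jejunum and 0 in Liver, with a median difference of 3.82. VIL1, villin, which bundles actin in the microvillus core, had levels from 4.74 to 5.19 (median 5.01) in Jejunum and from -3.72 to -0.65 (median -1.71) in Liver, a difference of 7.02 ± 0.36 (adjusted p = 6.8e-07). CDHR2, a protocadherin that links microvillus tips, lay between 2.59 and 3.63 against -6.44 and -3.65, with 1 Liver array well above background (8.64 ± 0.28, adjusted p = 5.1e-08). USH1C, harmonin, which anchors those cadherins, differed by 6.85 ± 0.15 (adjusted p = 6.2e-09). Each of these genes was higher in Jejunum in every animal. ANKS4B, a partner of USH1C, differed by 1.04 ± 0.18, from 4.2 to 4.87 against 2.34 to 4.1, and lost its call without animal 71 (0.97) or 75 (0.87). EPS8, an actin-capping protein, differed by 0.37 ± 0.17, where the organs overlapped and no call was made.

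Of 23 genes of nutrient and mineral absorption, 16 were higher in Jejunum and 3 in Liver, with a median difference of 4.26 that was 2.95 with dim genes at their bound and 1.83 with normexp. In the authors' deposited table, Jejunum was higher for 0 of them and Liver for 3, with a median of 0.29. SLC5A1, the sodium-glucose cotransporter, had levels from 6.68 to 7.22 (median 6.99) in Jejunum and from -2.68 to -1.7 (median -1.88) in Liver, a difference of 8.99 ± 0.17 (adjusted p = 2.7e-09). SLC15A1, the peptide transporter PEPT1, lay between 4.61 and 5.27 (median 4.93) in Jejunum and was well above background on 0 Liver arrays, at least 976-fold higher (adjusted p = 1.1e-10). S100G, the calcium-binding protein of the absorptive cell, had levels from 7.64 to 8.78 (median 8.26) against -5.07 to -4.04 (median -4.67), with 4 Liver arrays well above background (12.87 ± 0.2, adjusted p = 7.9e-10). No Liver array reached the lowest Jejunum array for any of the 3. SLC26A3, the chloride-bicarbonate exchanger, was at least 51.6-fold higher in Jejunum. SLC34A3, a sodium-phosphate cotransporter that is not on this list, was named for its large bound and was at least 3380-fold higher in Jejunum. SLC11A2, the divalent metal transporter of iron uptake, differed by -0.05 ± 0.21 (adjusted p = 0.84), with levels from 1.68 to 3.22 in Jejunum and from 1.76 to 2.47 in Liver. CYBRD1, the duodenal ferric reductase, was not called through its brightest probe (0.62 ± 0.1, adjusted p = 0.00054), but its other 5 probes differed by 2.07 to 2.86, so its probes disagree.

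Fat handling genes were split between the organs. Of 18 genes of dietary fat uptake and chylomicron assembly, 4 were higher in Jejunum, 4 in Liver and 10 were not called, with a median difference of 0.22. That split depended on the scaling, with 11 higher in Jejunum and 3 in Liver against the spiked-in controls (median 1.13) and 1 and 9 in the authors' deposited table (median -0.93). FABP1, a fatty acid binding protein of both cell types, had levels from 8.18 to 8.74 (median 8.5) in Jejunum and from 7.57 to 8.74 (median 8.34) in Liver, which overlapped and differed by 0.24 ± 0.14 (adjusted p = 0.16). FABP2, its intestinal relative, had levels from 6.77 to 7.33 (median 6.92) against -7.11 to -3.1 (median -6.18), with 1 Liver array well above background (12.82 ± 0.52, adjusted p = 1.9e-07). MTTP, which loads lipid onto apolipoprotein B in both organs, lay between 5.89 and 6.27 against 5.22 and 5.72, higher in Jejunum in every animal by an amount under 2-fold (0.63 ± 0.1, adjusted p = 0.00077). APOA1, the main protein of high-density lipoprotein, had levels from 9.25 to 9.79 (median 9.46) in Jejunum and from 9.68 to 10.05 (median 9.9) in Liver and differed by -0.4 ± 0.1 (adjusted p = 0.0064), without a call. APOA4, an apolipoprotein of chylomicrons, had levels from 8.03 to 8.85 (median 8.45) in Jejunum and from 0.66 to 4.13 (median 1.81) in Liver (6.51 ± 0.48, adjusted p = 6.1e-06). APOC2, the cofactor of lipoprotein lipase, was at least 31.4-fold higher in Liver. CD36, a fatty acid receptor, was higher in Jejunum by 4.29 ± 0.19 (0.39 to 1.05 against -4.34 to -2.72).

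Plasma proteins made the widest gap. Of 37 tested, 36 were higher in Liver and 0 in Jejunum, beside 16.2% of all genes higher in Liver, with a median difference of -11.47. ALB, albumin, had levels from 9.71 to 10.11 (median 9.89) in Liver and from -3.5 to -1.76 (median -2.17) in Jejunum, a difference of -12.22 ± 0.19 (adjusted p = 7.9e-10). FGB, the fibrinogen beta chain, lay between 7.3 and 8.2 (median 7.56) in Liver and was well above background on 0 Jejunum arrays (-8.24 to -6.24, median -6.92), at least 11500-fold higher in Liver (adjusted p = 1.2e-09). SERPINC1, antithrombin, had levels from 9.15 to 9.4 (median 9.28) against -3.02 to -2.21 (median -2.6), a difference of -11.83 ± 0.12 (adjusted p = 1.3e-10). The organs stood apart in every animal for these carriers and clotting proteins. The same held for HPX, the haem carrier (-12.16 ± 0.12), CP, the copper protein ceruloplasmin (-12.14 ± 0.16), AHSG, fetuin (-11.74 ± 0.18), and VTN, vitronectin (-11.62 ± 0.09). Genes measured on no Jejunum array included CPB2, an inhibitor of clot lysis (at least 9290-fold), and C8A, a chain of the complement attack complex (at least 7680-fold). So did SERPINA3-2, which is not on this list (at least 9140-fold). C9, another part of the complement attack complex, differed far less, from 4.11 to 5.72 in Liver and from 2.12 to 3.53 in Jejunum (-2.2 ± 0.19, adjusted p = 1.7e-05). The gene without a call was IGF1, insulin-like growth factor 1 (-0.58 ± 0.12), and the mean of its probes differed by -1.74.

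Enzymes that metabolise foreign compounds were mostly higher in Liver, with differences from -14.26 to 0.12. Of 26 cytochrome P450 and conjugation genes, 20 were higher in Liver, 0 in Jejunum and 6 were not called, with a median difference of -3.93. CYP2E1, which oxidises ethanol and small solvents, had levels from 8.35 to 8.77 (median 8.56) in Liver and from -5.37 to -4.32 (median -5.08) in Jejunum, -13.54 ± 0.17 (adjusted p = 3.7e-10), the largest difference among genes measured on all 12 arrays. CYP3A29 had levels from 3.61 to 5.54 (median 4.88) in Jejunum and from 4.92 to 5.94 (median 5.45) in Liver, which overlapped (-0.83 ± 0.29, adjusted p = 0.032), and was called without animal 75 (-1.01). CYP2C42 behaved alike, 1.01 to 3.42 against 2.46 to 3.28 (-0.9 ± 0.27), and was called without animal 71 (-1.16). The conjugating enzymes UGT1A6 (-0.45 ± 0.13) and GSTA2 (-0.36 ± 0.21, adjusted p = 0.16) differed by less than 2-fold. CYP1A2, an enzyme of aromatic amines and caffeine, differed by 0.12 ± 0.13 through its brightest probe and by -10.31 through another, so its probes disagree.

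In bile acid metabolism 13 of 19 genes were higher in Liver and 3 in Jejunum, with a median difference of -3.58. CYP7A1, the rate-limiting enzyme of bile acid synthesis, had levels from 2.43 to 4.04 (median 3.14) in Liver and from -7.87 to -5.35 (median -7.47) in Jejunum, with 1 Jejunum array well above background (-10.19 ± 0.44, adjusted p = 2.8e-07). SLC27A5, which activates bile acids for conjugation, differed by -10.16 ± 0.18. SLC10A1, the transporter that draws bile acids from portal blood into the hepatocyte, lay between 5.16 and 5.91 in Liver and was at least 2710-fold higher there. SLC10A2, the apical transporter known from the ileum, was low in both organs and not called, from -3.87 to -2.92 in Jejunum and from -3.66 to -2.86 in Liver (-0.36 ± 0.15, adjusted p = 0.067). NR0B2, the nuclear receptor SHP that holds back bile acid synthesis, overlapped between the organs (0.1 ± 0.29, adjusted p = 0.78).

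Amino acid breakdown genes were higher in Liver, 26 of 30 genes higher there and 0 in Jejunum, with a median difference of -5.27. Of the 30, 16 were well above background on all 12 arrays. TDO2, which opens the ring of tryptophan, lay between 6.73 and 7.1 in Liver and between -7.17 and -5.21 in Jejunum, with 1 Jejunum array well above background (-12.86 ± 0.25). MAT1A, the hepatic methionine adenosyltransferase, differed by -10.42 ± 0.2 and was measured on all 12 arrays. Among the genes without a call, SDSL, a serine dehydratase-like enzyme, differed by 0.0 ± 0.12, with levels from 4.93 to 5.33 in Jejunum and from 4.74 to 5.51 in Liver, and UPB1, of pyrimidine breakdown, by -0.07 ± 0.16 through its brightest probe, while other UPB1 probes differed by -1.66 to -9.76.

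The urea cycle and arginine genes were all called, 10 of 14 higher in Liver and 4 in Jejunum, with a median difference of -1.72. ARG1, the arginase that releases urea, had levels from 4.94 to 6.29 (median 5.59) in Liver and from -3.63 to -2.58 (median -2.98) in Jejunum, -8.7 ± 0.24 (adjusted p = 1.8e-08). OAT, ornithine aminotransferase, ran the other way, from 5.78 to 6.27 (median 5.83) in Jejunum and from 1.88 to 2.66 (median 2.24) in Liver (3.69 ± 0.16, adjusted p = 2.3e-07). ARG2, the mitochondrial arginase, was higher in Jejunum by 1.12 ± 0.3 (adjusted p = 0.0099) although the levels overlapped (-0.41 to 0.36 against -2.37 to -0.25), and lost its call without animal 70 (0.8). When arrays were scaled to the spiked-in controls, 6 of the 14 were higher in Liver and 4 in Jejunum, with a median of -0.81.

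Of 27 glucose and glycogen genes, 14 were higher in Liver and 7 in Jejunum, with a median difference of -1.08. When scaled to the spiked-in controls, 11 were higher in Liver and 9 in Jejunum, with a median of -0.17. GCKR, a regulatory protein of hepatic sugar metabolism, was at least 35.1-fold higher in Liver. HKDC1, a hexokinase relative, lay between 2.71 and 3.53 (median 3.19) in Jejunum and between -5.55 and -3.35 (median -3.98) in Liver, 7.37 ± 0.29 (adjusted p = 1.5e-07), and every Jejunum array lay above every Liver array. PKM, the pyruvate kinase of most tissues outside the hepatocyte, was higher in Jejunum (3.47 to 4.12 against -1.1 to 0.27, 4.03 ± 0.22, adjusted p = 1e-06). FBP2, known as the muscle form of fructose bisphosphatase, was at least 75.7-fold higher in Jejunum.

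Fat oxidation and lipid synthesis genes were mostly higher in Liver, by counts that depended on the scaling. In ketone body formation and fatty acid oxidation 17 of 25 genes were higher in Liver and 1 in Jejunum, with a median difference of -1.78. ACSL1, which activates long-chain fatty acids, had levels from 6.33 to 7.03 (median 6.69) in Liver and from 0.05 to 0.77 (median 0.47) in Jejunum, -6.25 ± 0.12 (adjusted p = 2.3e-09), and PDK4, which restrains pyruvate oxidation, differed by -4.5 ± 0.24. HADHA, the mitochondrial trifunctional protein, was not called (-0.28 ± 0.12). In cholesterol and fatty acid synthesis 22 of 25 genes were higher in Liver and 0 in Jejunum, with a median of -2.31. SCD, which puts the double bond into stearate, lay between 5.78 and 7.96 (median 7.3) in Liver and between 1.1 and 3.37 (median 1.64) in Jejunum, -5.18 ± 0.25 (adjusted p = 5.3e-07). MVK, mevalonate kinase, differed by -4.16 ± 0.15, and FADS2, the delta-6 desaturase, was at least 17.1-fold higher in Liver. When scaled to the spiked-in controls, 12 oxidation genes were higher in Liver and 3 in Jejunum (median -0.88), and 17 and 0 synthesis genes (median -1.4). In the authors' deposited table the counts were 12 and 1 (median -0.99), and 14 and 0 (median -1.13).

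Vitamin A handling gave values on both sides, 5 of 19 retinoid and vitamin genes higher in Jejunum and 8 in Liver, with a median of -0.73 that became 0.17 when scaled to the spiked-in controls. RBP2, the retinol carrier inside the enterocyte, had levels from 6.59 to 6.88 (median 6.67) in Jejunum and from -6.17 to -4.3 (median -5.08) in Liver, with 2 Liver arrays well above background (11.83 ± 0.22, adjusted p = 2e-09). RBP4, the plasma retinol carrier, lay between 6.76 and 7.17 (median 7.09) in Liver and between -2.01 and -1.63 (median -1.83) in Jejunum, -8.87 ± 0.11 (adjusted p = 3.7e-10). CYP26A1, which degrades retinoic acid, was at least 113-fold higher in Liver, and VDR, the vitamin D receptor, at least 12.2-fold higher in Jejunum. RDH11 and STRA6 were not called (-0.1 ± 0.18 and -0.11 ± 0.18).

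Of 19 iron, copper and haem genes, 13 were higher in Liver and 1 in Jejunum, with a median difference of -3.14. TF, transferrin, differed by -8.18 ± 0.11. TFR2, the transferrin receptor that senses iron in the hepatocyte, lay between 4.27 and 4.72 in Liver and between -0.61 and 1.29 in Jejunum (-4.4 ± 0.19), and TFRC, the receptor that takes transferrin into cells, between 4.43 and 5.69 against 2.44 and 2.92 (-2.54 ± 0.14). Both copper ATPases were within 2-fold, ATP7B at -0.61 ± 0.19 and ATP7A at -0.5 ± 0.11, but the mean of all ATP7A probes had the opposite sign (1.17).

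The transcription factors known from endodermal organs were divided, 12 of 30 higher in Jejunum, 10 in Liver and 8 not called, with a median of 0.37 that was -0.41 in the authors' deposited table. HNF4A, a nuclear receptor of both organs, had levels from 0.64 to 1.45 (median 1.2) in Liver and from -1.35 to -0.75 (median -1.05) in Jejunum, -2.2 ± 0.12 (adjusted p = 1.3e-06). HNF4G, its relative, ran the other way, from -0.68 to -0.07 (median -0.48) in Jejunum and from -5.23 to -2.58 (median -4.47) in Liver, with 4 Liver arrays well above background (3.87 ± 0.33, adjusted p = 1.7e-05). KLF5, known from crypt cells, was higher in Jejunum by 8.35 ± 0.35, with 1 Liver array well above background, and KLF4, of goblet and villus cells, by 5.58 ± 0.24. NR1I2, the receptor for foreign compounds, differed by 0.41 ± 0.12 and was not called. Of 10 genes of intestinal regions and stem cells, 4 were higher in Jejunum and 1 in Liver, with a median of 0.64. Among them ASCL2, a stem cell factor of the crypt, differed by 5.05 ± 0.17 with 1 Liver array well above background, EPHB2, a guidance receptor of crypt cells, was at least 10.5-fold higher in Jejunum, and ZNRF3, which removes Wnt receptors, differed by -2.19 ± 0.23.

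Genes of cell junctions and keratins were 12 of 29 higher in Jejunum and 7 in Liver, with a median of 0.81 that was -0.65 in the authors' deposited table. EPCAM, an adhesion molecule of gut epithelium and bile duct cells, had levels from 6.44 to 6.66 (median 6.51) in Jejunum and from -2.37 to -0.9 (median -1.47) in Liver, 8.14 ± 0.21 (adjusted p = 1.3e-08). KRT20, a keratin of the villus, lay between 5.55 and 5.99 (median 5.8) in Jejunum. In Liver it was well above background in animal 73 alone, where its level was -0.36, the other Liver arrays reaching down to -7.42 (median -7.28), and the difference was 11.95 ± 0.92 (adjusted p = 8.5e-06). KRT18, the keratin of the hepatocyte, ran the other way (0.9 to 1.65 against 3.95 to 4.88, -3.39 ± 0.16). CLDN15, a claudin that forms sodium pores in the gut, was higher in Jejunum by 3.39 ± 0.24, and CLDN14 higher in Liver (-7.26 ± 0.45), with 2 Jejunum arrays well above background. F11R of the tight junction differed by 0.04 ± 0.12.

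Products of the secretory cells of the gut were mostly higher in Jejunum. Of 15 goblet and Paneth cell products, 10 were higher in Jejunum and 1 in Liver, with a median difference of 5.05. Of the 15, 7 were well above background on all 12 arrays. LYZ, lysozyme, had levels from 7.41 to 8.26 (median 7.88) in Jejunum and from -0.86 to 1.18 (median -0.25) in Liver, 7.94 ± 0.2 (adjusted p = 1.2e-08). CLCA1, a secreted protein of goblet cells, differed by 10.91 ± 0.35 with 3 Liver arrays well above background, and REG4, a lectin of secretory cells, was at least 1110-fold higher in Jejunum. REG3G, an antibacterial lectin, spread widely among Jejunum animals, from 1.74 to 5.66 (median 3.27), and differed by 8.98 ± 0.52. Of 12 enteroendocrine genes, 10 were higher in Jejunum and 1 in Liver, with a median of 3.1. Of the 12, 6 were well above background on all 12 arrays. SST, somatostatin, lay between 3.74 and 4.43 in Jejunum and was at least 571-fold higher there, GCG, the precursor of glucagon-like peptides, at least 263-fold, and NTS, neurotensin, at least 50.2-fold. CHGA, the granule protein chromogranin A, was not called through its brightest probe (-0.56 ± 0.1), but its other probes differed by 2.57, 3.34 and 11.13. Of 10 genes of guanylin signalling and chloride secretion, 9 were higher in Jejunum and 1 in Liver. GUCA2A, guanylin, had levels from 6.74 to 7.59 (median 7.04) against -2.17 to -1.68 (median -1.91), 9.01 ± 0.16 (adjusted p = 1.9e-09). SLC12A2, the cotransporter that loads the crypt cell with chloride, differed by 4.58 ± 0.16.

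The largest Jejunum differences among genes measured on all 12 arrays were C19ORF77 (11.18 ± 0.16), LGALS4, a galectin of the gut surface (9.59 ± 0.15), GUCA2A and SLC5A1. The largest bound was that of SPINK1, which ranged from 8.11 to 8.41 (median 8.28) in Jejunum and was at least 9750-fold higher there than in Liver. SPAI-2, named for a sodium-potassium ATPase inhibitor of the pig gut, was at least 7470-fold higher, and PI3, elafin, at least 1070-fold.

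**Figure D2:**
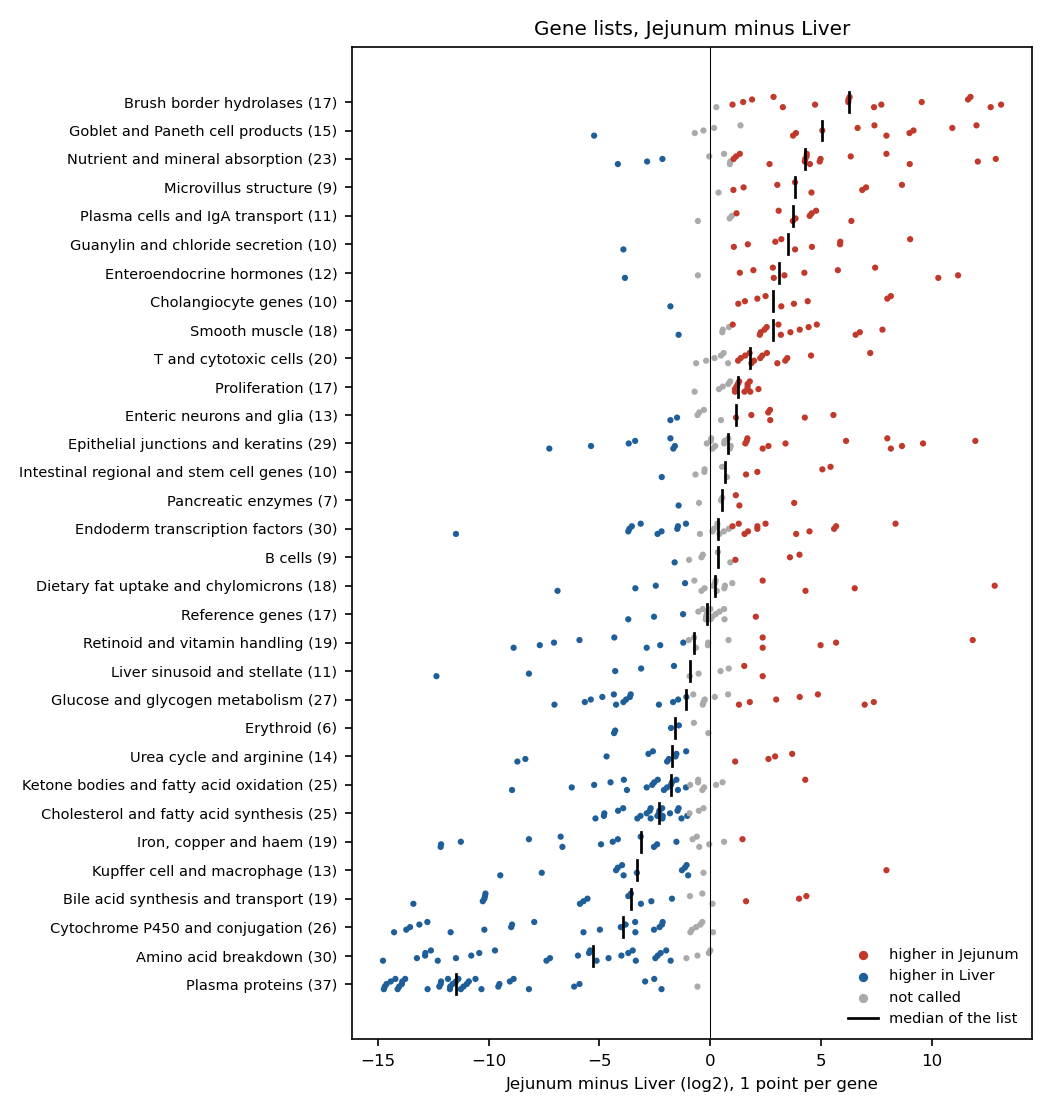
Difference between Jejunum and Liver (log2, horizontal axis) for each tested gene of the gene lists, with 1 point per gene, coloured by its call, and a black bar at each list's median; fitted values are plotted also where only a bound on the fold is known. Points to the right of 0 are higher in Jejunum; the medians run from -11.47 for plasma proteins to 6.23 for brush border hydrolases, and the medians of B cell, retinoid, transcription factor, fat uptake, junction, erythroid and reference genes changed sign under at least 1 other scaling or in the authors' deposited table.

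Cell types other than the main epithelium differed too, and their part in the differences above was not tested. Smooth muscle genes were higher in Jejunum in 14 of 18 cases and in Liver in 1, with a median of 2.81, and their mean level ranged from 2.71 to 4.02 over the Jejunum arrays and from 0.29 to 0.85 over the Liver arrays. ACTG2, enteric smooth muscle actin, had levels from 6.64 to 8.18 (median 7.77) against -1.12 to 1.2 (median -0.55), 7.76 ± 0.28 (adjusted p = 9e-08), and MYH11, smooth muscle myosin, was at least 47.6-fold higher in Jejunum. Enteric neuron and glia genes were higher in Jejunum in 7 of 13 cases and in Liver in 2, with a mean level from -2.03 to -1.72 against -3.31 to -2.79. Their median difference of 1.16 became 0.04 with normexp, where 4 were higher in Jejunum and 1 in Liver. Genes of bile duct cells were higher in Jejunum in 9 of 10 cases and in Liver in 1, and the list includes KRT19 (7.98 ± 0.29) and EPCAM, which are also known from gut epithelium. KRT7, a bile duct keratin, was the exception and higher in Liver (-1.8 ± 0.28). SPP1, osteopontin, was higher in Jejunum through its brightest probe (1.56 ± 0.27), while 6 other probes differed by -2.24 to -2.49.

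Immune genes separated by cell type. Of 13 Kupffer cell and macrophage genes, 11 were higher in Liver and 1 in Jejunum, with a median of -3.31 (-2.01 with the genes not above background in Jejunum at their bound) and a mean level from 1.53 to 2.12 over the Liver arrays and from -0.9 to -0.44 over the Jejunum arrays. CD5L, a secreted macrophage protein, had levels from 6.99 to 7.66 (median 7.29) in Liver and from -2.59 to -1.38 (median -2.35) in Jejunum, -9.47 ± 0.2 (adjusted p = 4.4e-09). CD163, the haemoglobin scavenger receptor, differed by -4.25 ± 0.2, and CD14, a receptor for bacterial lipopolysaccharide that hepatocytes also make, by -7.6 ± 0.1. The count higher in Liver was 8 with quantile normalization and 7 when scaled to the spiked-in controls, and in the authors' deposited table Jejunum was higher for 5 and Liver for 3, with a median of -0.14. The macrophage gene higher in Jejunum was LYZ, also on the Paneth cell list. Of 11 liver sinusoid and stellate genes, 5 were higher in Liver and 2 in Jejunum. When scaled to the spiked-in controls, 4 were higher in Liver and 4 in Jejunum, with a median of -0.02. CLEC4G, a sinusoidal lectin, differed by -12.35 ± 0.32 with 1 Jejunum array well above background.

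T and cytotoxic cell genes were higher in Jejunum in 14 of 20 cases and in Liver in 0, with a median of 1.81. GZMA, granzyme A, lay between 1.98 and 3.46 (median 2.84) in Jejunum and between -5.99 and -2.86 (median -4.39) in Liver, with 4 Liver arrays well above background (7.21 ± 0.41, adjusted p = 1.4e-06). CD3E, a chain of the T cell receptor complex, differed by 3.47 ± 0.38, from 4.01 to 4.84 against -0.63 to 1.93. CD4 was not called (-0.19 ± 0.18). Plasma cell and IgA transport genes were higher in Jejunum in 8 of 11 cases and in Liver in 0. PIGR, the receptor that carries IgA across the epithelium, had levels from 7.63 to 7.79 (median 7.7) against 2.11 to 3.52 (median 3.06), 4.77 ± 0.21 (adjusted p = 2.9e-07). CCL25, the chemokine that draws lymphocytes to the small intestine, lay between 5.17 and 5.7 against -1.11 and -0.56 (6.36 ± 0.12), and its receptor CCR9 differed by 4.57 ± 0.1. The B cell list held 3 of 9 genes higher in Jejunum and 1 in Liver, with a median of 0.34 that became -0.17 with normexp. The B cell marker CD79B was not called (0.34 ± 0.25), and the markers MS4A1 and CR2 were not bright enough to be tested.

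Of 17 proliferation genes, 12 were higher in Jejunum and 0 in Liver, with a median of 1.24. CDK1, the mitotic kinase, had levels from 1.21 to 2.13 (median 1.74) in Jejunum and from -1.63 to 1.11 (median -0.72) in Liver, 2.17 ± 0.39 (adjusted p = 0.0013). MKI67 differed by 0.39 ± 0.14 and was not called. Of 6 red cell genes, 4 were higher in Liver, with a median of -1.59 that was 0.06 in the authors' deposited table. HBB, beta globin, ranged from 0.81 to 4.31 (median 3.23) in Liver and from -2.25 to -0.57 (median -1.29) in Jejunum (-4.29 ± 0.51, adjusted p = 0.00012). Of 7 pancreatic enzymes tested, 3 were higher in Jejunum and 1 in Liver (0 and 1 with normexp, 5 and 0 against the spiked-in controls), among them CELA1, an elastase, at least 3.82-fold higher in Jejunum. Of 17 reference genes, 13 were not called, and their median of -0.15 became 0.48 with quantile normalization and 0.75 when scaled to the spiked-in controls. HPRT1 (-3.7 ± 0.12) and YWHAZ (2.05 ± 0.1) differed in opposite directions.

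Pairs of related genes put these contrasts side by side. Of 24 pairs, both members of 17 were tested. In 7 pairs the first was higher in Liver and the second in Jejunum: RBP4 and RBP2, SLC2A2 and SLC2A5, HNF4A and HNF4G, ARG1 and ARG2, DGAT2 and DGAT1, KRT18 and KRT20, and CLDN14 and CLDN15. SLC2A2, a glucose transporter of both organs, differed by -2.16 ± 0.19 (1.12 to 1.87 in Jejunum, 3.37 to 4.06 in Liver), and SLC2A5, the fructose transporter, was at least 12.4-fold higher in Jejunum. DGAT2 and DGAT1, which both add the last fatty acid of a triglyceride, differed by -3.38 ± 0.27 and 2.36 ± 0.12. In 2 pairs the first was not called and the second was higher in Jejunum, FABP1 with FABP2 and APOA1 with APOA4. In 3 the first was higher in Liver and the second was not called, among them MAT1A with MAT2A (0.19 ± 0.12). In 2 pairs both were higher in Liver, TFR2 with TFRC, and GPX1 with GPX2 through its brightest probe, although another GPX2 probe differed by 4.02. Of the 3 left, neither member was called in 2, SOAT1 with SOAT2 and ATP7B with ATP7A, and ACADM alone was higher in Liver beside ACADL. SOAT2 differed by 0.99, just under the 2-fold needed, and was called higher in Jejunum without animal 68 (1.09), with quantile normalization (1.25), with normexp (1.06) and against the spiked-in controls (1.89). The pairs had been chosen for known roles in one organ or the other, so their counts describe these pairs only.

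**Figure D3:**
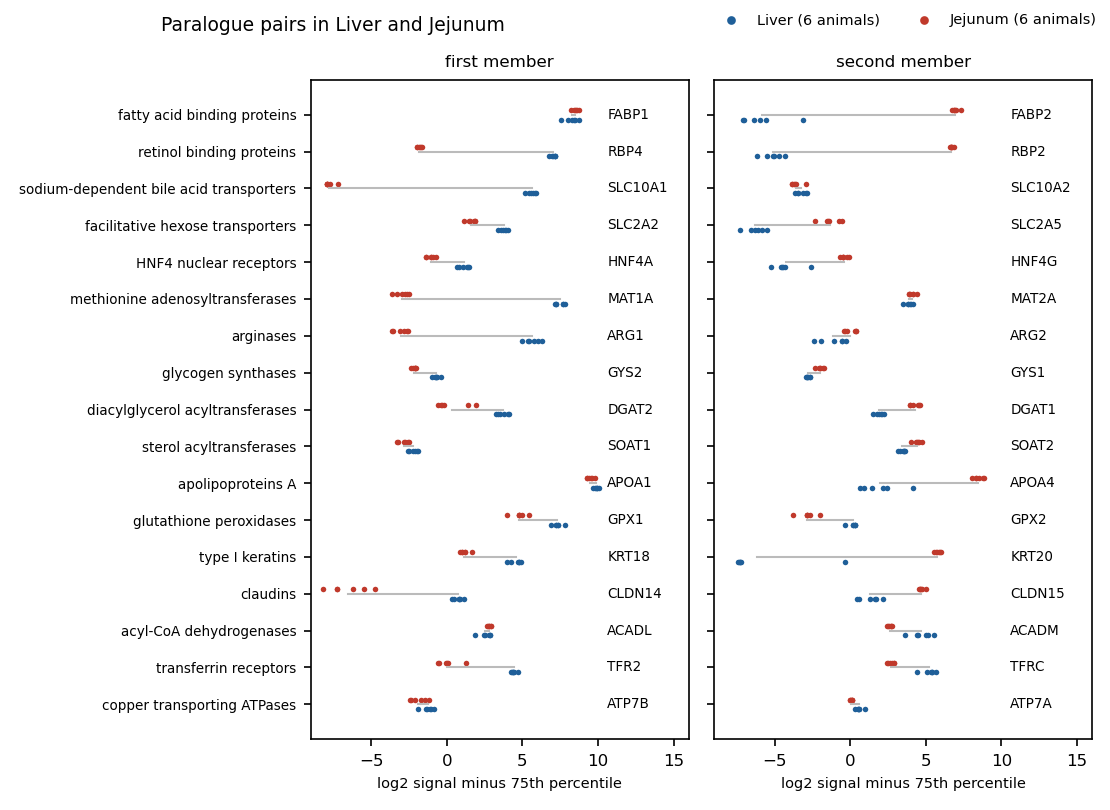
Level of both members of 17 pairs of related genes (log2 signal minus the 75th percentile of the array) in the 6 Liver and 6 Jejunum arrays; points are animals and grey lines join the means. RBP4 and RBP2 lie on opposite sides, and FABP1 overlaps between the organs while FABP2, well above background on 1 Liver array, does not.

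Genes high in both organs were sought by their difference from Spleen of the same animals, since levels of different probes on an array cannot be ranked. A gene was counted where its mean over Jejunum and Liver passed an adjusted p of 0.05 against Spleen, where each organ exceeded Spleen by at least 2 (4-fold), and where the organs differed by less than 1. By this rule 150 genes (1.42% of those tested) were high in both. The count was 83 when each organ had to exceed Spleen by 3 and 382 when by 1. Those with the largest smaller difference included GSTA2, FABP1, DAO, ENTPD8, LEAP2, SOAT2, UGT1A6, NR1I2, MTTP, ADTRP, MGST2, CYP3A29 and CYP2C42.

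FABP1 had Spleen levels from -5.89 to 1.74 (median -2.79), so Jejunum exceeded it by 11.15 and Liver by 10.92. GSTA2, a glutathione transferase, exceeded Spleen by 11.02 in Jejunum and 11.37 in Liver, with 3 Spleen arrays well above background. LEAP2, a peptide hormone first known as antimicrobial, lay between 1.63 and 2.71 in Jejunum and between 1.19 and 2.6 in Liver and was well above background on 0 Spleen arrays. ADTRP was likewise well above background on 0 Spleen arrays, and NR1I2 and DAO, D-amino acid oxidase, on 1 each. MTTP was measured on all 6 Spleen arrays (-4.11 to -1.19), and the mean of both organs exceeded Spleen by 9.25 ± 0.29 (adjusted p = 1.4e-11). Where Spleen was not well above background, these differences have no fixed size. The Spleen array of animal 73 was the highest for FABP1 (1.74), GSTA2 (-0.25), MTTP (-1.19) and NR1I2 (-4.27), and also for the Jejunum genes S100G (2.38) and SPINK1 (1.98). Without that animal 161 genes met the rule.

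By list, the 150 held 8 of 29 junction genes tested (among them CDH1, CGN, CLDN2, CLDN4, OCLN, PKP2 and TJP3). They held 6 of 30 transcription factors (among them GATA4, NR0B2, NR1I2, NR2F6 and NR5A2). Over all genes tested the share was 1.42%. Some genes, such as NR0B2, stand on another list as well, and the lists were chosen with earlier results known. Fat uptake gave 5 of 18 (ABCG8, APOA1, FABP1, MTTP and SOAT2), and P450 and conjugation 5 of 26 (CYP2C42, CYP3A29, GSTA2, POR and UGT1A6). Glucose metabolism gave 2 of 27, among them KHK, the fructokinase, and the retinoid list 2 of 19, BCO2 and RDH11.

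**Figure D4:**
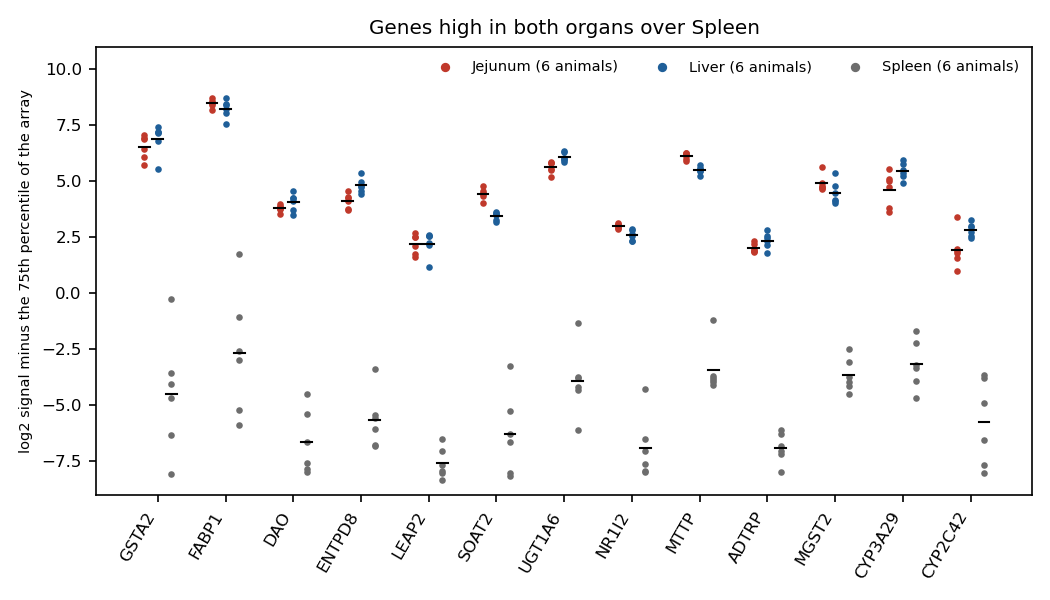
Level (log2 signal minus the 75th percentile of the array) of 13 of the genes highest in both organs over Spleen, in 6 Jejunum, 6 Liver and 6 Spleen arrays; each point is an animal and black bars are means. Jejunum and Liver points lie together and above Spleen, with FABP1 near 8.5 in Jejunum and 8.34 in Liver at the median against -2.79 in Spleen.

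The same animals gave both organs, and 29 genes (0.274% of those tested) differed between animals across the 2 organs at an adjusted p under 0.05. The count fell to between 9 and 19 when 1 animal was left out. HLA-E, named for a class I histocompatibility molecule, was low in animals 69 and 70, at -2.95 and -2.29 in Jejunum and -2.68 and -2.56 in Liver, while the other animals lay between 2.17 and 3.39 in Jejunum and between 0.75 and 2.88 in Liver (adjusted p = 0.0041). NGLY1, which removes sugar chains from misfolded proteins, was high in animals 69 and 73, at 3.44 and 3.38 in Jejunum and 3.55 and 3.43 in Liver, and between 0.93 and 1.89 in the rest. Its organs differed by -0.05 ± 0.11.

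Of the same 29, 4 genes were singled out after their values were seen. SAA1, an acute-phase protein, was highest in animal 75 in both organs, at 3.11 in Jejunum and 8.81 in Liver, while the others lay between -4.37 and -3.0 in Jejunum and between 2.95 and 4.0 in Liver. SAA3, of the same family, reached 5.3 and 9.86 in that animal. PON1, paraoxonase, was low in animals 71 and 75, at -8.12 and -8.22 in Jejunum and 3.21 and 1.5 in Liver, against -3.72 to -2.53 and 6.29 to 7.34 in the others. CYP1A1, a P450 induced by aromatic compounds, was low in animal 75, at -2.2 in Jejunum and -0.98 in Liver. Without animal 75 the count of 29 became 10, as it did without animal 68, and it was 9 without animal 71.

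**Figure D5:**
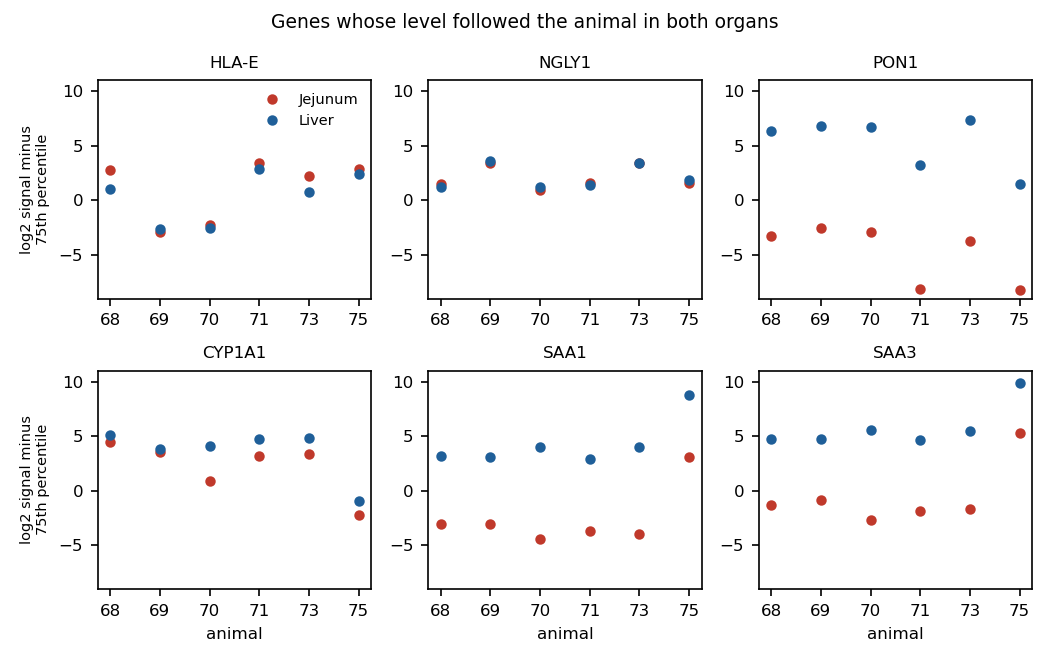
Level (log2 signal minus the 75th percentile of the array) of 6 genes in Jejunum and Liver of each of the 6 animals; each point is 1 array. HLA-E is low in animals 69 and 70 in both organs, NGLY1 high in 69 and 73, and SAA1 high in 75 at 3.11 and 8.81.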

How the data were processed

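The deposited scanner files hold intensity signals from Agilent Feature Extraction 10.10.1.1, which corrected the background within each array, per the file headers. The authors' deposited table holds log2 values of 44600 probes, each column with a median of 8.24, its centring not given in the sources used here. Limma is named without a version, per the submitters' processing notes. Here log2 signals minus each array's 75th percentile were fitted with limma 3.58.1 in R 4.3.3, with tissue and animal as terms, over 40691 probes. Kept were probes that 1 tissue or both read well above background in all 6 animals, and 136 of 60305 probes were dropped for outlier flags. P-values were adjusted (Benjamini-Hochberg) over all tested probes. Gene names are the symbols of the scanner files where these matched a reference list of genes (21481 probes). Others were named through that reference, mainly by sequence identifier (2908 probes) or gene number (1544 probes). For 1267 probes the name in the scanner files stood alone, and 32871 had no name. A gene was read from its brightest tested probe. The 5275 genes with several probes included 32 with probes called in opposite directions. The animal numbers pair the samples because each number is 1 animal. Deviations from the tissue means correlated at 0.119 to 0.259 within animals. Between different animals the mean was -0.035. That mean is largely set by the values within animals, since deviations from a mean over the same 6 animals cancel out. It is thus no separate check of the pairing. On simulated data of 40691 probes, 100 were changed in each run. Of those changed by log2 2, 90% were recovered, and of those changed by 4, 99%, with 3 false calls in each run. In the data themselves 13834 probes were called, so these rates need not hold there.

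The members and gene lists were chosen with earlier results of these data known. Genes named are the 10 largest differences and the 10 largest bounds in each direction, in each list up to 4 members with the largest and 2 with the smallest difference, both genes of each pair, 15 genes high in both organs, 6 with the strongest animal effect, and cell type markers, of which some are not reported here. Alternatives were other scalings and backgrounds, filters, fits without the animal block or on 24 arrays, slide as a random block, array weights, the authors' values, and leaving out each animal. Their number, 6 animals, limits the precision. The exact permutation tests were two-sided over samples.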

Additional observations from a re-analysis of the deposited data

Results flagged for a closer look

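Of 411 groups of 6 arrays examined (the 246 named genes, in Jejunum and in Liver wherever all 6 arrays were well above background), 24 held an array whose gap to the nearest other was large against the group's range (above Dixon's critical value for 6 samples). Chance gives about 1 in 20 groups. Animal 75 held 12 of them, animal 71 held 5, animal 70 held 4, animal 68 held 2 and animal 73 held 1.

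In Liver of animal 75, several enzymes and secreted proteins of the hepatocyte were the lowest array. Their levels were 5.57 for GSTA2 (others 6.82 to 7.41), 5.11 for MVK (6.16 to 6.57), 4.43 for SERPINA5 (5.61 to 6.14) and 1.19 for LEAP2 (2.16 to 2.6). PFKFB3, a regulator of glycolysis, stood at -0.5 (2.64 to 3.39), EPHB3 at -3.36 and SYNM at -1.17. CYBRD1 was the highest there at 4.56 (3.64 to 3.97), as was SPP1 at 1.33 (-1.01 to -0.36). The same animal had the highest SAA1 and SAA3 levels in both organs, and the part of that in these values was not tested.

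In Jejunum of animal 75, ALB was lowest at -3.5 (-2.4 to -1.76). CYBRD1 was highest at 4.96 (4.35 to 4.52) and TFR2 at 1.29 (-0.61 to 0.05). CYBRD1 was thus the highest in this animal in both organs. Its Jejunum array was scanned on another day than those of animals 68 to 71, and the part of that in these values was not tested.

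In Jejunum of animal 71 the smooth muscle genes CNN1 (4.65, others 5.69 to 6.3) and SYNM (3.01, others 4.21 to 4.78) were lowest, together with the carbonic anhydrase CA4 (2.22, others 3.46 to 3.81), and MGST2 was highest (5.62). In its Liver the elastase CELA2A stood at -1.84 (1.63 to 2.11). In animal 70, GPX2 (-0.34) and NR0B2 (-1.13) were lowest in Liver, and EPHB2 (-1.37) and SLC10A2 (-2.92) highest in Jejunum. In Liver of animal 68, PRPH was lowest at -4.75 and PYGL highest at 5.26, and in Liver of animal 73 C8A was highest at 7.43.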

How the results depend on the processing

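Of 3558 genes called, 3546 were also called with no replicate block on the same 12 arrays. That fit called 1836 genes higher in Jejunum and 1713 in Liver, and the named genes CELA2A, MLKL and XIRP1 lost their calls in it. Since every animal gave both organs, the block cannot change a difference or its direction, only its standard error and p. Leaving out 1 animal gave 3503 to 3638 calls, 1803 to 1897 higher in Jejunum and 1700 to 1741 in Liver, with 151 to 161 genes high in both organs and 9 to 19 with an animal effect. Scaling to the spiked-in controls gave 5675 calls (4800 higher in Jejunum, 875 in Liver), the authors' values 1243 (512 and 731), and the adjusted p alone 7393 (3664 and 3729). Requiring all 12 arrays well above background gave 1220 higher in Jejunum, on fewer genes. Genes high in both organs numbered 83 at 3 over Spleen, 382 at 1 and 245 with under 2 between the organs, and 462 genes had an animal effect over all 24 arrays. The authors' values were centred differently from the scanner signals: their median absolute difference between the 2 slide sets was 0.05 against 0.49, and their Jejunum-Liver differences correlated at 0.72 with those of the scanner, against 0.97 for Liver and Spleen on shared slides. Their slope on the scanner differences was 0.26 for Jejunum and Liver, 0.73 for Liver and Spleen and 0.82 for the 2 jejunal samples.

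A sign change was counted only for genes called here or in the alternative, so changes in genes called in neither are left out. By that count 30 of 246 named genes took the other sign in the authors' values: AHSP 1.76, ANKS4B -2.66, APOA4 -1.62, ARG2 -0.40, C1QA 1.23, CLDN15 -0.75, CLPS -0.25, DGAT1 -0.47, DPP4 -1.08, EPCAM -0.28, EPS8L3 -0.26, FABP1 -3.58, GAP43 -0.46, HBB 1.88, HBZ 0.23, MGST2 -2.60, MTTP -3.18, NEUROD1 -0.05, NR0B2 -1.01, NR1I2 -2.50, PIGR -1.45, PRKG2 -0.03, PRPH -1.06, REG4 -0.03, SDSL -1.29, SLC4A4 -0.79, SOAT2 -2.62, SOX9 -0.11, VIL1 -0.53 and XIRP1 -0.38. By the same count the mean of all probes reversed ATP7A (1.17), CHGA (4.12), CYP1A2 (-5.09), GPX2 (0.51) and SPP1 (-1.82), whose probes disagree, and normexp reversed CD37 (-0.17), NEUROD1 (-0.11), PRKG2 (-0.26) and SCTR (-0.28). The cause was not tested, and the signs in the authors' values come from a table where differences between the slide sets were small. Signals near background limit the size of any difference that reaches a dim tissue.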
